A study of Homo sapiens with 5 samples.

Results

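The genes of the G2/M transition and of the mitotic spindle were described in SAS cells with and without a hairpin against CCT2. The group holds 42 genes, chosen by name from the cyclins, kinases, kinetochore proteins, motors and cytokinesis factors of mitosis. All 42 were found among the 15187 genes listed in both deposited tables, and all 42 were among the 13123 genes that passed the filter on low counts and were tested. SAS is a squamous cell carcinoma line of the tongue, used as a model of head and neck cancer. RNA-seq was made from 5 libraries of this 1 line, 2 with a control hairpin (shCtrl 1 and 2) and 3 with a hairpin against CCT2 (shCCT2 1, 2 and 3). The libraries were deposited in 2 tables. Set A holds shCtrl 1, shCCT2 1 and shCCT2 2, and set B holds shCtrl 2 and shCCT2 3. The sources used here give neither the number of hairpins against CCT2 nor the hairpin sequences. They also do not give the time after transduction or the number of separate cultures. A p-value therefore measures only how far these 5 libraries spread, and that spread may be technical.

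Entry into mitosis is driven by CDK1 bound to cyclin A or cyclin B, which CDC25 phosphatases switch on and which Polo and Aurora kinases reinforce. Chromosomes attach to microtubules at kinetochores, kinesins shape the spindle, and the anaphase-promoting complex (APC/C) with CDC20 then destroys cyclin B and opens the way to anaphase and cytokinesis. Transcripts of these genes peak together late in the cell cycle. The DREAM complex holds their promoters silent in resting cells, and B-MYB (MYBL2) and FOXM1 with the same MuvB core drive them later, at CHR elements that often stand beside CCAAT boxes bound by NF-Y. CCT2 is a subunit of the chaperonin CCT/TRiC, which folds tubulin, actin and WD40 proteins, CDC20 among them.

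The libraries held between 16913600 and 18156600 counts. Levels are given in CPM (counts set against a common library total, scaled by TMM). CCT2 measured 629.9 and 642.4 CPM in shCtrl 1 and 2, while shCCT2 1, 2 and 3 had 296.1, 272.4 and 260.2 CPM. All 3 knockdown libraries lay below both controls, and the fitted log2 change was -1.22 (SE 0.18, n = 3 and 2, adjusted p = 0.542 with edgeR's quasi-likelihood test and 3.81e-05 with DESeq2). The 2 controls differed from each other. Of the squamous markers, 11 of 11 were above 0 in each library. Their sum was 6240 CPM in shCtrl 1 and 2620 CPM in shCtrl 2. It was 4550, 5420 and 5570 CPM in shCCT2 1, 2 and 3. Of the 11, 8 were lower in shCtrl 2 than in shCtrl 1, and ITGA6, LAMB3 and KRT6A were higher. CDH1 (E-cadherin) stood at 251.5 and 10.6 CPM in the controls, and at 185.4, 212.5 and 24.9 CPM in shCCT2 1, 2 and 3. CDH1, KRT5, KRT14, KRT17, EPCAM and DSG3 were lower in both set B libraries than in all of set A, an order seen in 28.7% of all genes. The sum of shCCT2 3 included LAMB3 at 2405 CPM, against 642.9 to 727.1 CPM in the other libraries. KRT6A stood at 630.4 CPM there, against 40.2 to 64.8, and ITGA6 at 1116 CPM, against 486.2 to 621.5. KRT17 was lowest there, at 111.2 CPM, against 404.0 to 1115. Of the 11 markers, 9 were above shCtrl 2 in shCCT2 3 (48.8% of all genes) and 2 below it (51.2%). Fibroblast markers summed to at most 12.4 CPM and endothelial markers to at most 7.45 CPM, with DCN and LUM at 0 in all 5 libraries. Leukocyte markers summed to between 44.0 and 121 CPM, mostly CD68, which was highest in shCtrl 1 at 111.7 CPM. In shCCT2 2, PTPRC stood at 6.51 CPM, against at most 0.648 in the other libraries, and CD14 at 15.5 CPM, against at most 6.23. The share of reads in the last 20% of the deposited windows along transcripts ran from 13.8% in shCCT2 1 to 16.7% in shCtrl 1. The part of these differences in the results below was not tested, and in bulk RNA fewer cells in mitosis and less RNA per cell cannot be told apart.

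The mitotic genes stood slightly above their control in both knockdown libraries of set A, and split in set B. In shCCT2 1, 40 of the 42 were above shCtrl 1, where 49.7% of all genes tested were, with a median log2 difference of 0.40 against -0.001 for all genes. In shCCT2 2, 41 of 42 were above the same control (49.7% of all genes), with a median of 0.26. Both comparisons share shCtrl 1. In shCCT2 3, 15 were above shCtrl 2 (48.8% of all genes) and 27 below it (51.2%), with a median of -0.18 against -0.02 for all genes.

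Differences were small in set A and larger in set B. At least 1.5-fold above the control were 4 members in shCCT2 1 (3.70% of all genes) and 0 in shCCT2 2 (2.32%), and at least 1.5-fold below it were 0 in either (10.4% and 3.09% of all genes). In shCCT2 3, 5 were at least 1.5-fold higher (19.8% of all genes) and 8 at least 1.5-fold lower (24.5%), so that neither share of the members exceeded that of all genes. The SD over the members was 0.22 and 0.14 in shCCT2 1 and 2 and 0.59 in shCCT2 3, against 0.45, 0.29 and 0.91 over all genes. Each library of a set is compared with 1 control, so these differences have no replicate of their own. Counting error alone was small. In shCCT2 1 and in shCCT2 2, 39 members had a 95% exact binomial counting interval wholly above 0 (27.8% and 17.5% of all genes). In shCCT2 3, 13 intervals lay above 0 (38.1%) and 24 below it (39.5%).

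**Figure D1:**
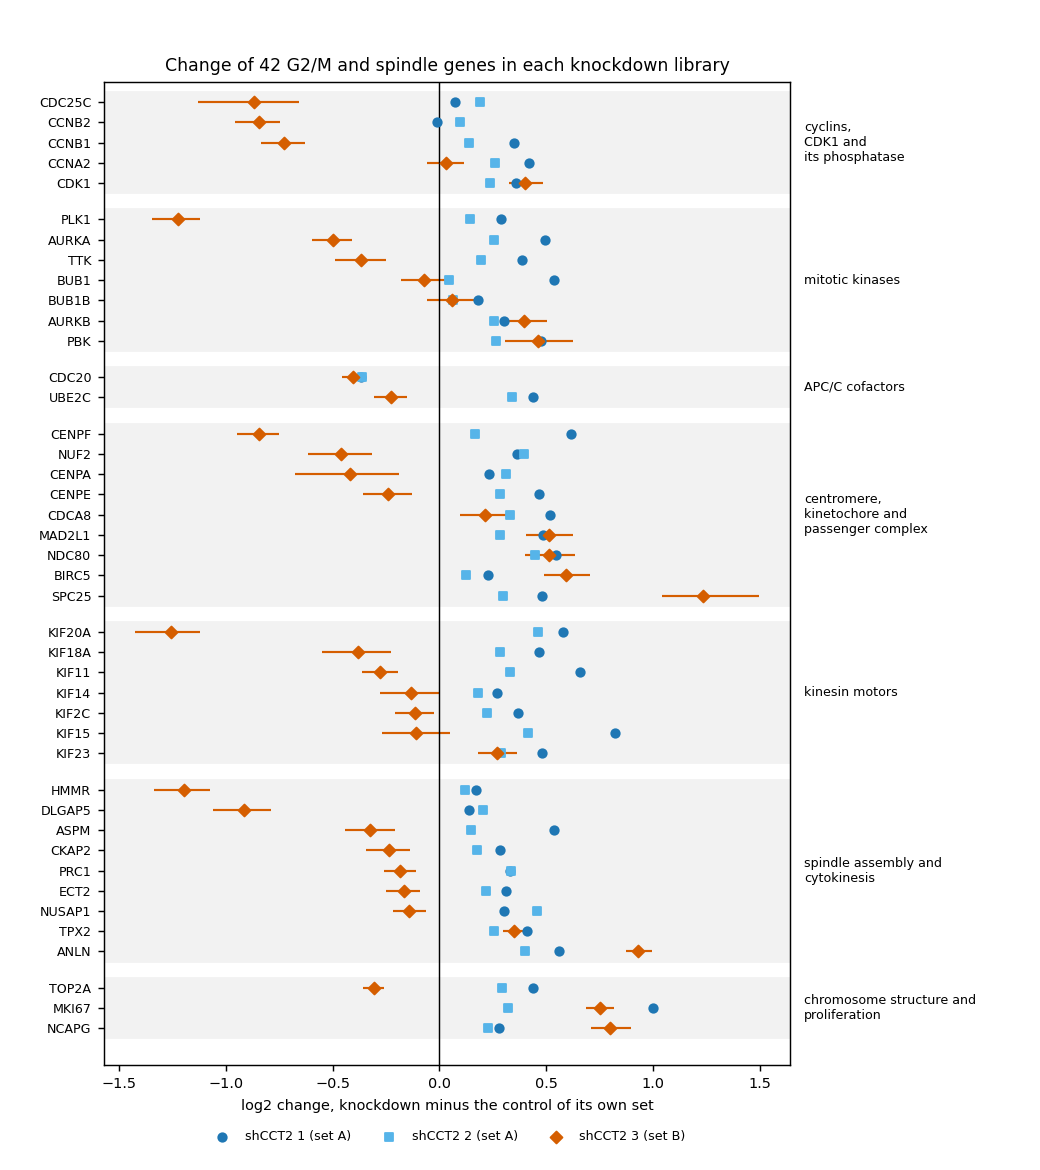
Log2 change of each of the 42 genes in each knockdown library against the control of its own set, from TMM-scaled CPM with 0.5 added, ordered by role. The points of shCCT2 1 run from -0.37 for CDC20 to 0.999 for MKI67 and those of shCCT2 2 from -0.36 for CDC20 to 0.46 for KIF20A, while those of shCCT2 3 run from -1.26 for KIF20A to 1.24 for SPC25.

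Promoters of 6 members at the ends of the order in set B or with 1 direction throughout are printed, to show the elements known for this gene class where they occur. PLK1, KIF20A and HMMR were the 3 lowest against shCtrl 2, SPC25 and ANLN the highest, and CDC20 was the 1 member below its control in all 3 knockdown libraries. Each sequence runs 5′ to 3′ on the gene's own strand, from 180 bases before to 10 bases after the RefSeq start in GRCh38.p14. Capitals mark CHR elements (searched as TTTGAA or TTCGAA) and CCAAT boxes, on either strand, so that TTCAAA and ATTGG are the same elements read backwards.
PLK1 (chr16:23678709-23678898, plus strand): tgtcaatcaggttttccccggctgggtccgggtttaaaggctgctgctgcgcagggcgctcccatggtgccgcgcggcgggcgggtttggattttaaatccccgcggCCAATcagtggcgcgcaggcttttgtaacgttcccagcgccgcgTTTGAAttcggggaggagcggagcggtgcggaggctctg
KIF20A (chr5:138178932-138179121, plus strand): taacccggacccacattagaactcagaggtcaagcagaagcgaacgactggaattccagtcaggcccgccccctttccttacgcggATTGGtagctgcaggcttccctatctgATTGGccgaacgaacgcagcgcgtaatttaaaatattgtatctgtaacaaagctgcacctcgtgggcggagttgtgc
HMMR (chr5:163460452-163460641, plus strand): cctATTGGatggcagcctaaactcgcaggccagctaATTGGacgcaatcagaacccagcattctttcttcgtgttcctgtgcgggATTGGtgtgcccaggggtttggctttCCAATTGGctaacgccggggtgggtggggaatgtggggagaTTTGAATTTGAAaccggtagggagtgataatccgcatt
CDC20 (chr1:43358801-43358990, plus strand): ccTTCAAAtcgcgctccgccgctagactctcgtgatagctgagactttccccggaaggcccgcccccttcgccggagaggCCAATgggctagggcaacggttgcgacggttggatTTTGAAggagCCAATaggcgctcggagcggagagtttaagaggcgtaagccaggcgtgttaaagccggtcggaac
SPC25 (chr2:168890421-168890610, minus strand): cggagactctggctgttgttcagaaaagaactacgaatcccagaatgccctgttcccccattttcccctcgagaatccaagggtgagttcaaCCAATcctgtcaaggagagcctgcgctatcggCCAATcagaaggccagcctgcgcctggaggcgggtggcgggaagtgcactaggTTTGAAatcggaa
ANLN (chr7:36389682-36389871, plus strand): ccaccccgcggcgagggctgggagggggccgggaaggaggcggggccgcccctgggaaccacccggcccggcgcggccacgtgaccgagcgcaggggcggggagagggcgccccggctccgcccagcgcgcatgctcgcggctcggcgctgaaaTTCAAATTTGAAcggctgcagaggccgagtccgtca

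In the full windows searched, 250 bases before to 50 after the start, PLK1 held 1 CCAAT box and 1 CHR element, and HMMR held 5 CCAAT matches, 2 of them overlapping on opposite strands, and 2 CHR elements. KIF20A held 2 CCAAT boxes and no match to the 2 CHR spellings. ANLN held 2 CHR matches that abut on opposite strands and no CCAAT box, and CDC20 and SPC25 each held 2 of both kinds, with 1 CHR match of SPC25 lying upstream of the bases shown. Of the 42 genes, 36 matched a promoter, not among them AURKA, TTK, PBK, UBE2C, BIRC5 and TPX2. The windows of AURKB and CKAP2 begin downstream of the start of the gene in RefSeq, so the bases around that start were not searched. CHR elements were found in 28 of these 36 (77.8%), against 11.1% of 10628 tested genes with a promoter and 16.6% of all 27305 promoters. CCAAT boxes were found in 26 (72.2%), against 36.5% and 35.7%, and both elements in 22 (61.1%), against 4.7% and 6.58%.

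The presence of a CHR element was spread over genes that were higher and genes that were lower in shCCT2 3. It was found in 18 of the 24 lower members with a promoter (75%) and in 10 of the 12 higher ones (83.3%). CCAAT was found in 18 of the same 24 (75%) and in 8 of the same 12 (66.7%), and 2 or more CCAAT boxes in 13 (54.2%) and 3 (25%). These are shares of letter matches, not of bound sites, and no test was made of the differences between them.

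**Figure D2:**
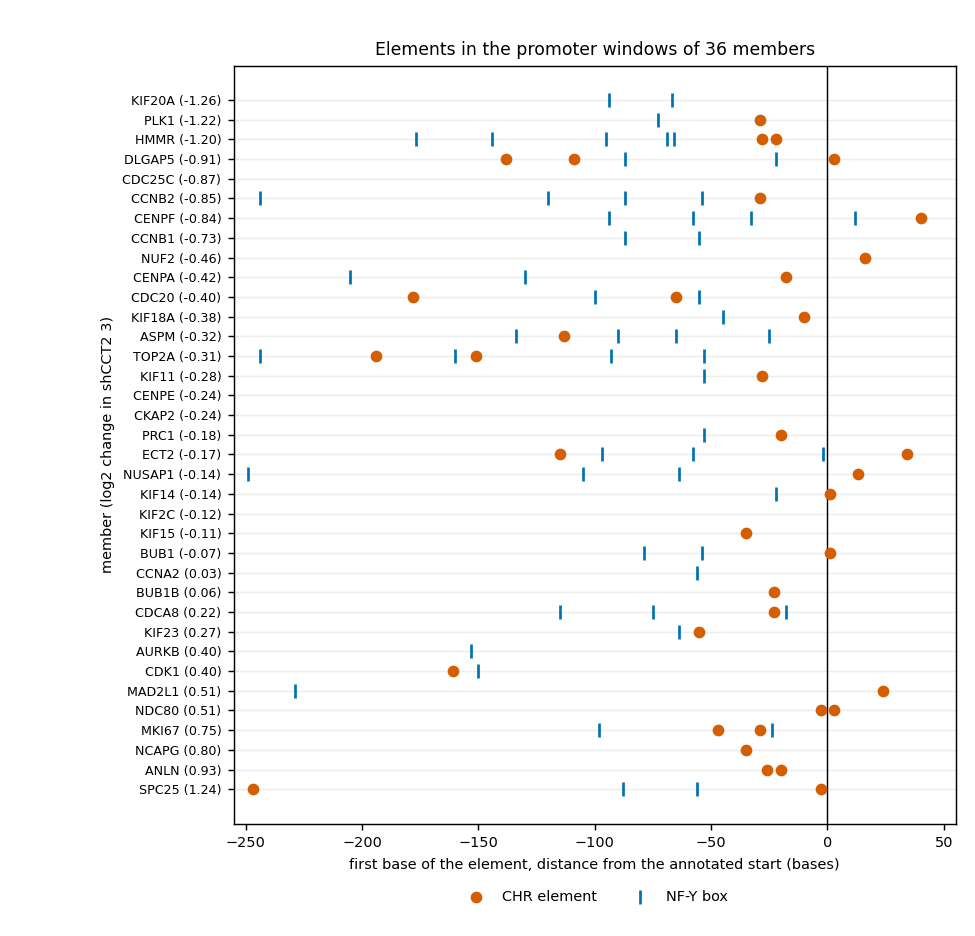
Position of CHR and CCAAT matches relative to the annotated start (in bases) in the 36 members with a RefSeq promoter, with members ordered by their log2 change in shCCT2 3. Many CHR matches lie close to the start and CCAAT matches upstream of them, in members at both ends of the order, while CDC25C, CENPE, CKAP2 and KIF2C hold no match of either kind. The windows of CKAP2 and AURKB begin downstream of the RefSeq start of the gene.

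Among the cyclins and the core of the CDK1 switch, the B-type cyclins and CDC25C were lower in set B while CDK1 itself was higher in both sets. CCNB1 (cyclin B1, the partner of CDK1 at mitotic entry) stood at 322.9 CPM in shCtrl 1, 412.2 in shCCT2 1 and 355.6 in shCCT2 2, and at 110.4 in shCtrl 2 and 66.4 in shCCT2 3. Its log2 changes were 0.35, 0.14 and -0.73, and its level in shCtrl 2 was already below all 3 libraries of set A. CCNB2 (cyclin B2) stood at 138.6, 137.3 and 148.0 CPM in shCtrl 1, shCCT2 1 and shCCT2 2, and at 112.9 and 62.6 CPM in shCtrl 2 and shCCT2 3. Levels of set A are given in this order from here on, as are those of set B, and log2 changes in the order shCCT2 1, 2 and 3. For CCNB2 the 3 libraries of set A lay close together and shCCT2 3 was the lowest of the 5. CDC25C, a phosphatase that activates CDK1, was also lowest in shCCT2 3, with 40.6, 42.7 and 46.4 CPM in set A and 23.0 and 12.4 CPM in set B.

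CDK1 stood at 183.9, 236.4 and 217.1 CPM in set A and at 118.6 and 156.9 CPM in set B, above the control of its set in 3 of 3 knockdown libraries. Because shCCT2 3 was still below shCtrl 1, the groups overlapped. Its fitted log2 change was 0.35 (SE 0.18, adjusted p = 0.542 with edgeR). CCNA2, cyclin A2, which serves both S phase and mitotic entry, stood at 157.5, 210.9 and 188.5 CPM in set A and at 117.0 and 119.4 CPM in set B. Its set B difference of 0.03 had a counting interval of -0.06 to 0.12, and it turned negative without TMM scaling.

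The 7 mitotic kinases were all above shCtrl 1 in shCCT2 1 and 2 (49.7% of all genes in each). In shCCT2 3, 3 of 7 were above shCtrl 2 (48.8% of all genes). PLK1, the Polo kinase that acts from mitotic entry to cytokinesis, stood at 137.7, 168.2 and 152.3 CPM in set A. In set B its level was 117.2 CPM with the control hairpin and 49.8 CPM in shCCT2 3, a log2 difference of -1.22 with a counting interval of -1.35 to -1.12. The other libraries lay between 117.2 and 168.2 CPM, so shCCT2 3 stood apart from all of them. AURKA, the Aurora kinase of centrosomes and spindle poles, stood at 232.6, 327.7 and 277.5 CPM in set A and at 118.1 and 83.4 CPM in set B.

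AURKB, the Aurora kinase of the chromosomal passenger complex, differed from AURKA in direction in set B. It stood at 105.5, 130.2 and 126.1 CPM in set A and at 71.7 and 94.4 CPM in set B, with log2 changes of 0.30, 0.26 and 0.40. PBK, a kinase abundant in dividing cells, stood at 45.1, 63.0 and 54.4 CPM in set A and at 30.3 and 41.8 CPM in set B, with log2 changes of 0.48, 0.27 and 0.46. Both lay above the control in each set, and for both shCCT2 3 remained below shCtrl 1. The fitted log2 change was 0.42 for PBK (SE 0.19, adjusted p = 0.542 with edgeR) and 0.33 for AURKB (SE 0.17, adjusted p = 0.542 with edgeR). The checkpoint kinases TTK and BUB1 and the checkpoint pseudokinase BUB1B had log2 changes of 0.18 to 0.54 in shCCT2 1 and of -0.37, -0.07 and 0.06 in shCCT2 3, and the small positive value of BUB1B turned negative without TMM scaling.

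CDC20 and UBE2C serve the APC/C, CDC20 as its activator and target of the spindle checkpoint and UBE2C as its ubiquitin-conjugating enzyme. CDC20 had 370.5 and 358.1 CPM in the controls, and 287.2, 288.0 and 270.7 CPM in shCCT2 1, 2 and 3. It was the 1 member whose 3 knockdown libraries all lay below both controls, an order seen in 1 of 42 members and in 8.28% of all genes. Its log2 changes were -0.37, -0.36 and -0.40, with a fitted value of -0.38 (SE 0.17, unadjusted p = 0.0696, adjusted p = 0.542 with edgeR). UBE2C stood at 160.8, 218.4 and 203.7 CPM in set A and at 163.1 and 139.1 CPM in set B, so its controls were alike and its knockdown libraries lay on both sides of them.

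The 9 genes of the centromere, kinetochore and passenger complex were all above shCtrl 1 in shCCT2 1 and 2 (49.7% of all genes in each). In shCCT2 3, 5 of 9 were above shCtrl 2, near the share of all genes (48.8%). The subunits of the NDC80 complex, which binds microtubules at the kinetochore, went apart in set B. NDC80 had 45.03 and 54.2 CPM in the controls, and shCCT2 1, 2 and 3 had 66.0, 61.6 and 77.6 CPM. All 3 knockdown libraries lay above both controls, and the log2 changes were 0.55, 0.45 and 0.51, with a fitted value of 0.51 (SE 0.17, unadjusted p = 0.0248, adjusted p = 0.542 with edgeR). Its partner NUF2 stood at 44.7, 57.6 and 59.0 CPM in set A and at 46.8 and 33.8 CPM in set B, a log2 difference of -0.46 in shCCT2 3.

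SPC25, which anchors the same complex at the centromere, stood at 34.1, 47.8 and 42.1 CPM in set A and at 12.2 and 29.5 CPM in set B. Its log2 changes were 0.48, 0.30 and 1.24, and the fitted value of 0.76 was the largest among the 42 (SE 0.26, unadjusted p = 0.0274, adjusted p = 0.542 with edgeR). The level in shCtrl 2 was the lowest of the 5, and shCCT2 3 was still below shCtrl 1. SPC25 had non-whole deposited counts in 5 libraries, as did CCNA2 and NCAPG, and how these arose was not tested.

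MAD2L1, the MAD2 protein of the spindle checkpoint, had 78.1 and 59.6 CPM in the controls and 109.5, 95.1 and 85.3 CPM in shCCT2 1, 2 and 3. Each knockdown library was above both controls, and the fitted log2 change was 0.44 (SE 0.18, unadjusted p = 0.0458, adjusted p = 0.542 with edgeR). CENPF, a large protein of the outer kinetochore, went the other way in set B. It stood at 261.6, 401.8 and 293.5 CPM in set A and at 127.4 and 70.8 CPM in set B, with log2 changes of 0.62, 0.17 and -0.84. BIRC5 (survivin) and CDCA8 (borealin) of the passenger complex were above the control in each set, with log2 changes in shCCT2 3 of 0.59 and 0.22, and the motor CENPE and the centromeric histone CENPA were below shCtrl 2, at -0.24 and -0.42.

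The 7 kinesins were all above shCtrl 1 in shCCT2 1 and 2 (49.7% of all genes in each), and 6 of 7 were below shCtrl 2 in shCCT2 3 (51.2%). KIF20A, a kinesin of the central spindle needed for cytokinesis, stood at 113.8, 170.2 and 156.9 CPM in set A and at 65.8 and 27.2 CPM in set B. Its log2 changes of 0.58, 0.46 and -1.26 spanned the widest range among the 42, and the counting interval of the last was -1.43 to -1.12. KIF23, the kinesin of the centralspindlin complex, was the exception, at 110.8 and 93.7 CPM in the controls and 154.9, 135.5 and 113.1 CPM in shCCT2 1, 2 and 3. All 3 of its knockdown libraries lay above both controls, and the fitted log2 change was 0.34 (SE 0.18, adjusted p = 0.542 with edgeR).

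KIF11 and KIF15, the motors that push the spindle poles apart, were among the 3 members most above shCtrl 1 in shCCT2 1 and were close to or below shCtrl 2. KIF11 stood at 187.4, 296.1 and 235.9 CPM in set A and at 136.5 and 112.6 CPM in set B. KIF15 stood at 32.9, 58.6 and 44.1 CPM in set A and at 36.1 and 33.5 CPM in set B, where the counting interval of its log2 difference ran from -0.27 to 0.05. The fitted values were 0.16 for KIF11 (SE 0.25, adjusted p = 0.781 with edgeR) and 0.31 for KIF15 (SE 0.27, adjusted p = 0.62 with edgeR). KIF14, a kinesin of the midbody, and KIF18A and KIF2C, which act on microtubule ends, had log2 differences of -0.14, -0.38 and -0.12 in shCCT2 3.

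Of the 9 genes of spindle assembly and cytokinesis, 9 were above shCtrl 1 in shCCT2 1 and 2 (49.7% of all genes in each). In shCCT2 3, 2 were above shCtrl 2 (48.8% of all genes). HMMR, a spindle pole protein that also binds hyaluronan, stood at 142.8, 161.1 and 155.0 CPM in set A and at 84.5 and 36.6 CPM in set B. The set B difference was -1.20 with a counting interval of -1.34 to -1.08, and the fitted value of -0.45 was the lowest among the 42 (SE 0.33, adjusted p = 0.577 with edgeR). DLGAP5, which stabilizes microtubules near chromosomes, stood at 134.8, 148.6 and 155.6 CPM in set A and at 68.9 and 36.3 CPM in set B. For both genes shCCT2 3 was the lowest of the 5 libraries and shCtrl 2 the next.

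ANLN (anillin), the scaffold of the cytokinetic ring, had the opposite course in set B. Its controls had 308.5 and 176.3 CPM, against 455.5, 407.4 and 336.6 CPM in shCCT2 1, 2 and 3, so all 3 knockdown libraries lay above both controls. Its log2 changes were 0.56, 0.40 and 0.93, and the fitted value was 0.67 (SE 0.20, unadjusted p = 0.015, adjusted p = 0.542 with edgeR). TPX2, which activates AURKA and nucleates microtubules, was above the control in both sets, at 549.4, 729.6 and 655.6 CPM in set A and 312.2 and 397.9 CPM in set B. The remaining 5, PRC1, NUSAP1, ASPM, ECT2 and CKAP2, had log2 differences of 0.15 to 0.54 in set A and of -0.32 to -0.14 in shCCT2 3.

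The 3 genes of chromosome structure and proliferation did not share a direction in set B. MKI67, the Ki-67 antigen that coats mitotic chromosomes, stood at 412.9, 826.0 and 516.7 CPM in set A and at 161.5 and 272.5 CPM in set B. Its log2 changes of 0.999, 0.32 and 0.75 gave a fitted value of 0.72 (SE 0.26, unadjusted p = 0.028, adjusted p = 0.542 with edgeR), though shCCT2 3 was below shCtrl 1. NCAPG, a condensin I subunit, stood at 156.4, 189.7 and 183.0 CPM in set A and at 77.7 and 135.6 CPM in set B. TOP2A, the topoisomerase that untangles sister chromatids, stood at 433.3, 587.4 and 530.4 CPM in set A and at 377.1 and 304.5 CPM in set B, a log2 difference of -0.31 in shCCT2 3.

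**Figure D3:**
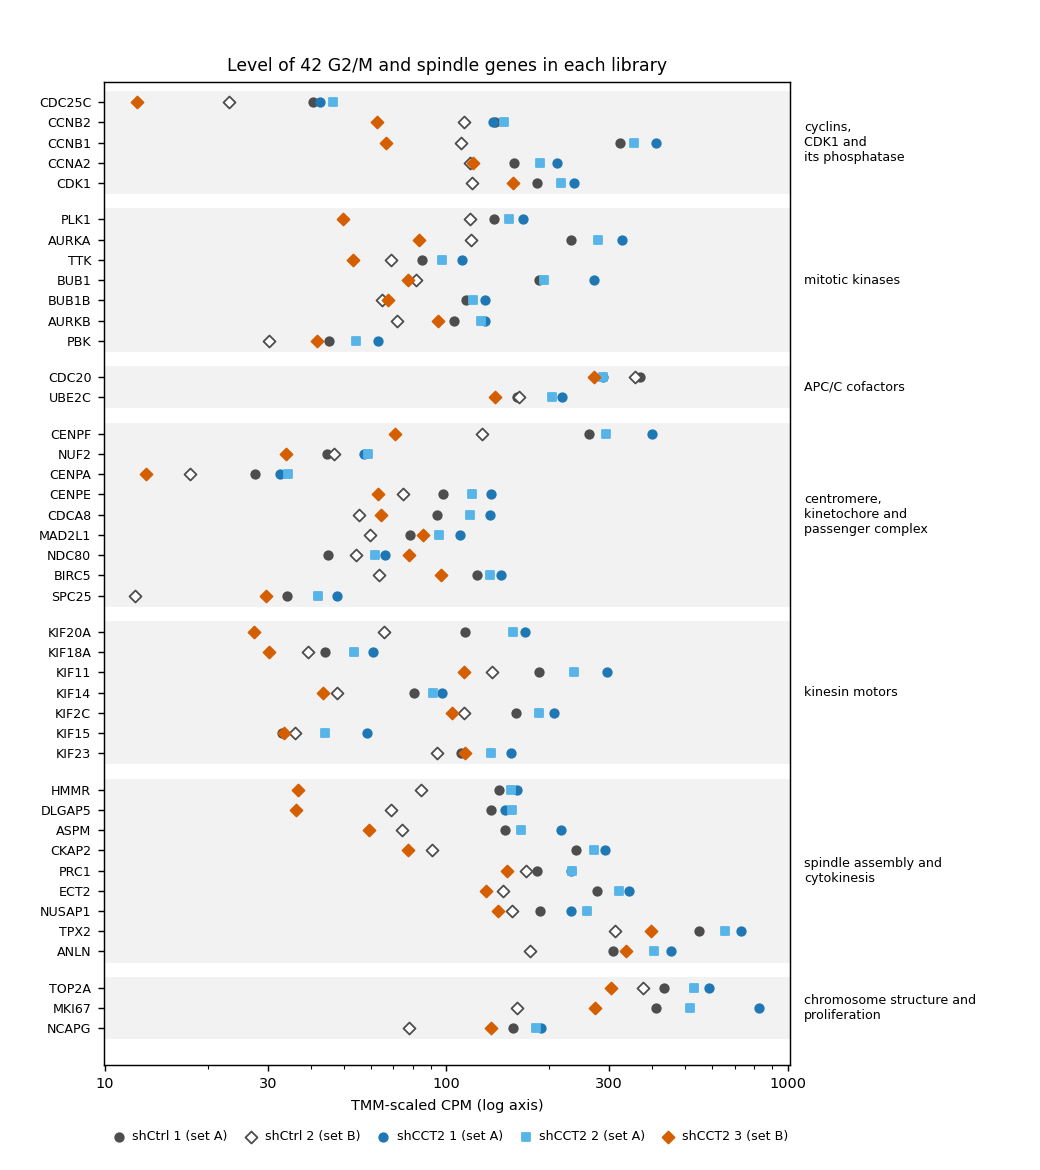
TMM-scaled CPM (log axis) of the 42 genes in each of the 5 libraries, ordered by role, with controls and knockdown libraries marked by set. For 34 of the 42 genes both set B libraries lie below all 3 set A libraries.

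The test over all 5 libraries, with the set as a term, called 0 of the 42 genes at an adjusted p under 0.05, and 0 of all 13123 genes (0%). With DESeq2 it called 0 of the 42 and 17 genes in all (0.147%). At an unadjusted p under 0.05, edgeR had 5 members (7.41% of all genes), 5 higher (2.83%) and 0 lower (4.57%). These were ANLN, NDC80, SPC25, MKI67 and MAD2L1, and DESeq2 also had 5. Without shCCT2 1, shCCT2 2 or shCCT2 3 the count was 0, 3 and 3. Without shCtrl 1 the change rests on shCCT2 3 against shCtrl 2 alone, with the spread taken from shCCT2 1 and 2, and without either library of set B it rests on the 1 control of set A, so the lone libraries are assumed to vary like the others. The fitted change was above 0 for 31 of 42 genes (48.5% of all genes), for 15 without shCtrl 1, for 24 without shCCT2 1 and for 41 without shCCT2 3. In the fits with 1 library left out, the shares of all genes beside these member counts were not counted. The median fitted change of 0.11 became -0.15 without shCtrl 1. Read by sample, 5 of 42 genes had groups that did not overlap (16.2% of all genes). All 3 knockdown libraries lay above both controls for NDC80, MAD2L1, KIF23 and ANLN, 4 of 42 (7.97% of all genes), and below both for CDC20 (8.28%).

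Whether the knockdown change differed between the sets was tested as an interaction, which had 1 residual degree of freedom. Its spread comes from shCCT2 1 and 2 alone, and shCtrl 1, shCtrl 2 and shCCT2 3, each 1 library, are assumed to vary like them. It called 0 of the 42 genes and 0 of all genes (0%) at an adjusted p under 0.05. At an unadjusted p under 0.05, 10 members were lower in set B than in set A (9.35% of all genes) and 1, SPC25, was higher (7.83%). KIF20A had the largest difference, -1.80 (SE 0.30, unadjusted p = 0.00105, adjusted p = 0.125 with edgeR), followed by PLK1 at -1.45 (SE 0.30, unadjusted p = 0.00312, adjusted p = 0.138 with edgeR) and HMMR at -1.35 (SE 0.29, unadjusted p = 0.00375, adjusted p = 0.141 with edgeR). These 3 passed when genes were required to have 1 CPM in every library, with edgeR adjusted p of 0.00523, 0.0161 and 0.0214, where 6.05% of genes passed. They also passed without TMM scaling, where 4.38% of genes passed, and KIF20A alone passed with robust estimation (1.41%). None of the 42 passed with DESeq2 size factors or with no filter.

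**Figure D4:**
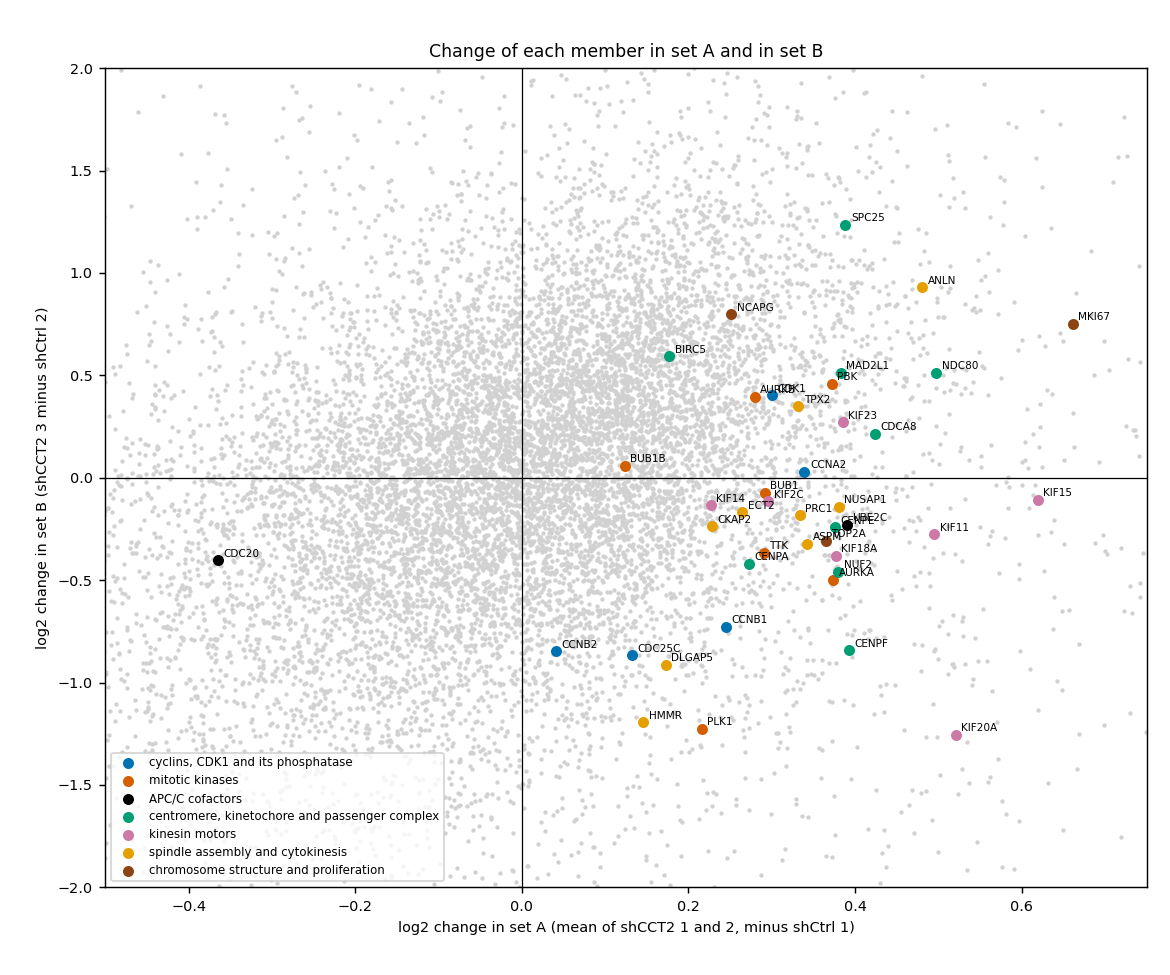
Log2 change of each member in set A (mean of shCCT2 1 and 2 against shCtrl 1, x axis) and in set B (shCCT2 3 against shCtrl 2, y axis), with all tested genes that fall within the axes in grey. Above 0 in set A and below 0 in set B lie 26 members, 15 lie above 0 in both, and CDC20 alone lies below 0 in both.

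In that comparison of the sets, 26 of 42 members (19.1% of all genes) were higher in the mean of set A and lower in shCCT2 3, 15 were higher in both (30.4%) and 1 was lower in both (32.1%). The 8 that were at least 1.5-fold lower in shCCT2 3 were CCNB1, CCNB2, CDC25C, PLK1, CENPF, KIF20A, HMMR and DLGAP5. The 5 that were at least 1.5-fold higher were SPC25, ANLN, NCAPG, MKI67 and BIRC5. By principal transcript, MKI67 (12.7 kb), ASPM (10.9 kb), CENPF (10.3 kb) and CENPE (8.61 kb) were the longest of the 42. In shCCT2 3 MKI67 was higher, at 0.75, and ASPM, CENPF and CENPE were lower, at -0.32, -0.84 and -0.24. A relation of the changes to transcript length was not tested.

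The controls themselves differed for these genes. In shCtrl 2, 38 of 42 were below shCtrl 1 (50.1% of all genes), 22 of them at least 1.5-fold (24.7%), with a median log2 difference of -0.63 against -0.002 for all genes. CCNB1 was lowest at -1.54, and NDC80, at 0.26, was the highest of the 4 exceptions. A lower level in shCtrl 2 was not particular to these genes. Each list of related genes described below also had a median under 0 between the controls. The medians ran from -0.415 for the regulators of G2/M gene transcription (9 of 15 lower) to -1.25 for the G1/S and replication list (27 of 30 lower). Without TMM scaling the median of all genes was 0.20 in this comparison and -0.13 in shCCT2 3. The members' medians were then -0.41 and -0.29, 34 members stayed below shCtrl 1, and CDC20, KIF18A, PRC1 and TOP2A turned. Both set B libraries were below all 3 set A libraries for 34 of 42 genes (28.7% of all genes), among them all 5 of the cyclin and CDK1 group and all 7 kinases. Each side of the comparison of controls is 1 library, and the set and the library cannot be told apart. Together the 42 genes took 0.675% and 0.501% of the counts of shCtrl 1 and 2, and 0.873%, 0.781% and 0.452% of those of shCCT2 1, 2 and 3.

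Per kilobase of transcript, the order of the members was led by the APC/C cofactors. The mean level over the 2 controls was 205 CPM per kb for CDC20 and 190.5 for UBE2C, followed by TPX2 at 123.2 and NUSAP1 at 105.6 CPM per kb. CDC20 had 208.5 and 201.5 CPM per kb in the controls and UBE2C 189.2 and 191.9, while TPX2 had 157.1 and 89.3. The controls of NUSAP1, at 115.5 and 95.8 CPM per kb, lay within the range of TPX2, so these neighbours did not differ beyond their spread. KIF15, with 6.80 and 7.46 CPM per kb, was lowest in the mean, and KIF14, with 11.1 and 6.56, overlapped it. In shCCT2 3 the rank of NDC80 among the 42 was 15, from 34 and 21 in the controls, and that of KIF20A was 35, from 24 and 28.

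Related genes of the same processes were read from lists of the other machinery of mitosis. Of 32 other kinetochore and checkpoint genes, 30 had a fitted change above 0 (48.5% of all genes) and 10 an unadjusted edgeR p under 0.05 (7.41% of all genes), all 10 higher (2.83%). Their median change on the log2 scale was 0.20 and 0.20 in set A and 0.75 in shCCT2 3. ZWINT, which links the kinetochore to the checkpoint, had log2 changes of 0.81, 0.31 and 2.04, and CENPN, which binds centromeric nucleosomes, 0.63, 0.33 and 1.05. Of 14 other condensin, cohesin and separase genes, 12 were above 0 and 4 had such a p, beside the same shares of all genes, with medians of 0.29, 0.12 and 0.57. Of 22 other spindle, centrosome and cytokinesis genes, 17 were above 0 (48.5% of all genes) and 1 had such a p (7.41%), with medians of 0.35, 0.28 and -0.02. In each list 0 genes passed after adjustment.

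The other controls of CDK1 and the other parts of the APC/C were read in the same way. Of 12 other CDK1 regulators, 10 had a fitted change above 0 and 2 an unadjusted edgeR p under 0.05, both higher, beside the same 48.5%, 7.41% and 2.83% of all genes. CDC25A, the phosphatase that acts from G1/S onward, had log2 changes of 0.996, 0.19 and 2.52, while CDC25B, which acts at mitotic entry, had 0.11, -0.005 and -1.13. Of 17 APC/C subunits and regulators, 14 were above 0 (48.5% of all genes) and 1 had such a p (7.41% of all genes), FBXO5 (EMI1, the S and G2 inhibitor of the APC/C), with log2 changes of 0.52, 0.45 and 1.11. A list of 30 G1/S and DNA replication genes, given as a contrast, had medians of 0.33, 0.06 and 1.59. In it 28 were above 0 and 9 had such a p, beside the same shares of all genes, and RRM2, a subunit of ribonucleotide reductase, had log2 changes of 0.86, 0.52 and 2.13.

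**Figure D5:**
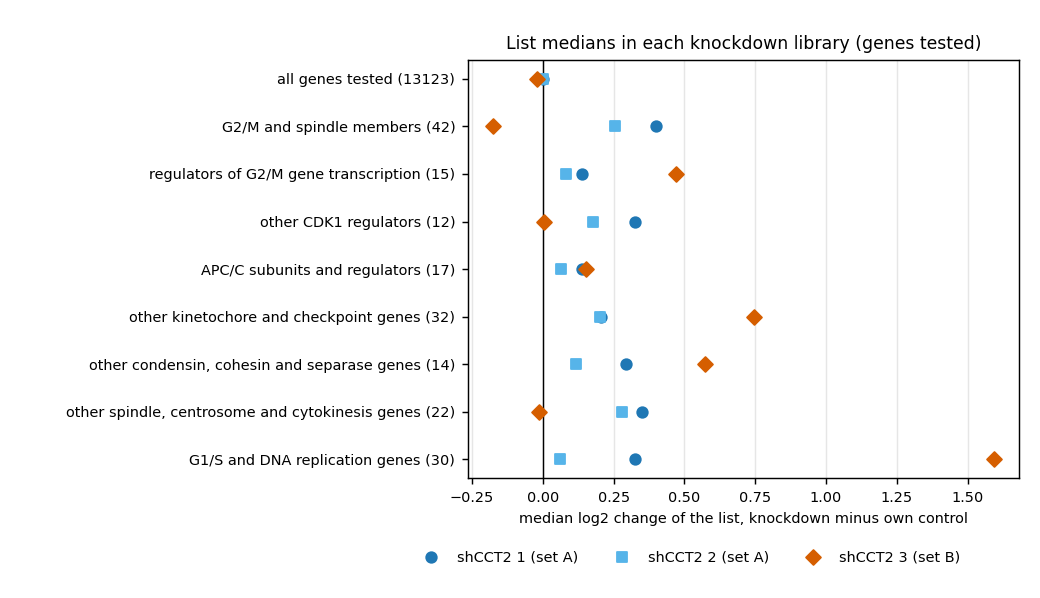
Median log2 change in each knockdown library for all genes tested, the 42 genes and the 7 lists of related genes, with the number of genes tested in brackets. In shCCT2 3 the medians run from -0.18 for the 42 genes to 1.59 for the G1/S and replication list, and in shCCT2 1 and 2 those of the 42 genes and of the 7 lists lie between 0.06 and 0.40.

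Of the 15 regulators of G2/M gene transcription, 10 were higher and 5 lower than the control in each knockdown library, where 49.7%, 49.7% and 48.8% of all genes were higher. FOXM1, which drives G2/M genes, stood at 319.9, 487.0 and 375.5 CPM in set A and at 125.7 and 219.9 CPM in set B, with log2 changes of 0.61, 0.23 and 0.80. MYBL2 stood at 230.9, 313.5 and 270.9 CPM in set A and at 145.8 and 493.2 CPM in set B. Of the pocket proteins, RBL1 (p107) had log2 changes of 0.72, 0.30 and 1.58 and RBL2 (p130), the usual partner in DREAM, -0.62, -0.24 and -1.12. RBL2 had 87.9 and 111 CPM in the controls and 57.2, 74.6 and 50.7 CPM in shCCT2 1, 2 and 3, below both controls throughout. The subunits of NF-Y had log2 changes of 0.02, 0.07 and 0.20 for NFYA, 0.22, 0.22 and -0.17 for NFYB and 0.14, 0.07 and -0.10 for NFYC. Of the 15 regulators, 12 had a fitted change above 0 (48.5% of all genes), and 3 were higher (RBL1, FOXM1 and MYBL2, 2.83% of all genes) and 2 lower (RBL2 and E2F5, 4.57%) at an unadjusted edgeR p under 0.05, with 0 past the threshold after adjustment.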

How the data were processed

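RNA-seq of 5 SAS libraries was used. RNA was extracted with Trizol, selected with oligo(dT) beads and primed with random hexamers, per the labels' protocols. Gene values come in 2 tables of expected counts (estimated read counts), named read counts by the authors per the file headers and not normalized, with 86.2% to 87.9% whole numbers in a library. A coverage signal in 201 windows along transcripts was also deposited. Per the submitters' processing notes, the tools were HTSeq and STAR 1.5.1 and the build was mm10, a mouse genome. The gene identifiers are human, and 98.8% and 98.7% matched RefSeq of GRCh38.p14, so the build behind the counts and the use of strand are not given in the sources used here. Which end of the transcript the first window stands for is not given either.

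Expected counts were rounded, joined on the gene identifier and scaled by TMM. 763 and 1032 genes listed in 1 table only were not tested. Genes were filtered by group with edgeR 4.0.16 in R 4.3.3 and tested by its quasi-likelihood test with the set as a term (2 residual degrees of freedom), with Benjamini-Hochberg adjustment over 13123 genes at 0.05. Log2 changes of single libraries used CPM with 0.5 added. Counting intervals are 95% exact binomial and cover counting error only. Promoters came from RefSeq (GRCh38.p14) and transcript lengths from GENCODE, as the longest principal protein-coding transcript of a gene. Alternatives were DESeq2 1.42.0, other scalings, filters, pseudocounts and designs, and each library left out. The fit was tested on simulated data. All pairs of libraries differed by more than sampling noise (chi-square per degree of freedom of at least 19.4).

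The members and lists were chosen with earlier results of these data known. Each member could be named. Fitted values were given for CCT2, for up to 3 members of each of the 7 role groups by the smallest p and for the largest change in each direction, and up to 4 genes of each related list were named by the smallest p, except that any of the 15 regulators of G2/M gene transcription could be named.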

Additional observations from a re-analysis of the deposited data

How the results depend on the processing

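In edgeR and DESeq2, 0 of the 42 genes passed under any alternative to the main test of the knockdown. CCT2 stayed between -1.28 and -1.15 on the log2 scale, and it passed with DESeq2 at -1.21. Over all genes, DESeq2 called 17 and the fit without shCCT2 2 called 2, against 0. The number of members fitted above 0 was 31, and 15 to 41 when 1 library was left out. Their median of 0.11 ran from -0.15 to 0.34 when 1 library was left out, and it was negative without shCtrl 1 alone. The number with an unadjusted p under 0.05 was 5, 0 with no term for the set, and 0 to 3 when 1 knockdown library was left out. For neither of these member counts was the share of all genes counted under the alternatives. With no term for the set, HMMR had a fitted change of 0.049. In set A alone CCNB2 stood at 0.042, PLK1 at 0.22 and HMMR at 0.15. With 1 library left out, CCNB2 ran from -0.82 to 0.042, PLK1 from -1.20 to 0.22, HMMR from -1.18 to 0.15, UBE2C from -0.20 to 0.39, TOP2A from -0.28 to 0.37, KIF15 from -0.08 to 0.64 and KIF11 from -0.25 to 0.51. The fits without 1 library that reversed CCNB2, PLK1 and HMMR rest on set A alone, and the fit without shCtrl 1 rests on set B alone for the change. The cause of the other reversals, of HMMR with all 5 libraries and of TOP2A without shCCT2 1 (-0.004), was not tested.

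With the replicate number as a block in place of the set, the median of the members was 0.59, with CCNB2 at 0.19, PLK1 at 0.33 and HMMR at 0.52, 3 members at an unadjusted p under 0.05 and 0 called. The libraries numbered 2 come from different sets, so the numbers are not known to pair the libraries, and the correlation of same-numbered deviations was 0.69 for number 1 and -0.60 for number 2. Deviations were taken from the group mean, so those of the 2 controls are equal with opposite sign, while shCCT2 1 and 2 share a set. The 2 correlations therefore cannot show whether the numbers pair the libraries.

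In the interaction of set and knockdown, 3 members passed without TMM scaling (575 genes in all), 3 with at least 1 CPM in every library (679 genes) and 1 with robust estimation (185 genes), against 0. Without TMM scaling 17 members had an unadjusted p under 0.05, against 11 with it (17.2% of all genes). The share of all genes without scaling was not counted, so the rise cannot be read as particular to the members. The interaction without shCCT2 1 or 2 was not run, since no residual degree of freedom is left. The share of reads in the last 10% of windows was 6.09% and 5.27% in shCtrl 1 and 2 and 4.76%, 5.29% and 4.66% in shCCT2 1, 2 and 3. In CCNB2 the log2 difference of -0.01 in shCCT2 1 turned positive with DESeq2 size factors. Each set has 1 control. The lowest count of a member in any library was 227, for CDC25C in shCCT2 3.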
